A study of Mus musculus with 9 samples.

Results

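The interferon regulatory factors (IRFs) are a family of transcription factors with a shared DNA-binding domain that recognises interferon-stimulated response elements in promoters. IRF3 and IRF7 are switched on by phosphorylation after nucleic acid sensing and induce type I interferon, and IRF9 is the DNA-binding part of the complex that then activates interferon-stimulated genes. IRF1 activates many of these genes and those of antigen presentation, and IRF2 competes for the same sites. In lymphocytes IRF4 is induced by antigen receptor signalling and acts together with BATF and JUN proteins, whereas IRF5 and IRF8 are best known from myeloid cells and B cells.

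The transcripts of Irf1, Irf2, Irf3, Irf4, Irf5, Irf7, Irf8 and Irf9 were followed in spleen cells labelled naive CD4+ T cells. These 8 genes were taken by symbol from 55487 gene IDs, and all 8 passed the filter on low counts that left 13374 genes for testing. The mice were of strain C57BL6/J and genotype WT in every group, and received a neutralizing antibody against the inflammatory cytokine IL-1b over 10 days (anti-IL-1b), MCC950, a small-molecule inhibitor of the NLRP3 inflammasome that processes this cytokine, over 10 days (MCC950), or nothing (untreated). Each group had 3 libraries of poly(A) RNA. The labels give neither the sort, the age or sex of the mice, the doses, nor which mouse a library came from, so the p-values measure the spread between libraries, which may be technical.

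Library totals were 14775375 to 16676626 expected counts in anti-IL-1b, 16769960 to 18497827 in MCC950 and 17335367 to 21394797 in untreated libraries. Markers of naive CD4+ T cells were present, all 13 of 13 in every group, and summed to 7250 to 7290, 6640 to 6660 and 7470 to 7530 CPM in anti-IL-1b, MCC950 and untreated libraries, with Tcf7 highest. CPM are counts scaled to one common library total with TMM factors, and adjusted p-values are two-sided edgeR quasi-likelihood p-values, adjusted by Benjamini and Hochberg's method over the 13374 genes. In such bulk RNA, fewer cells that carry a transcript and less of it per cell cannot be told apart.

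Irf4 fell about 10-fold with either agent, Irf1 and Irf2 fell, and Irf3 and Irf7 rose. Against untreated libraries, 7 of the 8 members passed an edgeR adjusted p under 0.05 with anti-IL-1b, 4 higher and 3 lower. Of all tested genes 34% passed the same threshold (15.4% higher, 18.5% lower). For MCC950 against untreated 6 of 8 passed, 3 higher and 3 lower, against 36.8% of all genes (17.7% higher, 19.1% lower). The libraries of the 2 groups did not overlap for 6 of 8 members with anti-IL-1b and for 6 of 8 with MCC950, against 43.2% and 47.3% of all genes. The median log2 fold change of the members was 0.21 with anti-IL-1b and 0.25 with MCC950, beside 0.0 and 0.01 over all tested genes. Both comparisons use the same 3 untreated libraries. The labels name no group given a control antibody or a vehicle. An effect of an agent and a difference in handling, sort or batch of the untreated libraries therefore cannot be told apart. Words such as fell and rose describe differences between groups. Scaling by library totals instead of TMM shifted the median of all genes by 0.13 with anti-IL-1b and 0.11 with MCC950, and turned 2066 higher and 2479 lower genes with anti-IL-1b into 3929 and 1344.

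**Figure D1:**
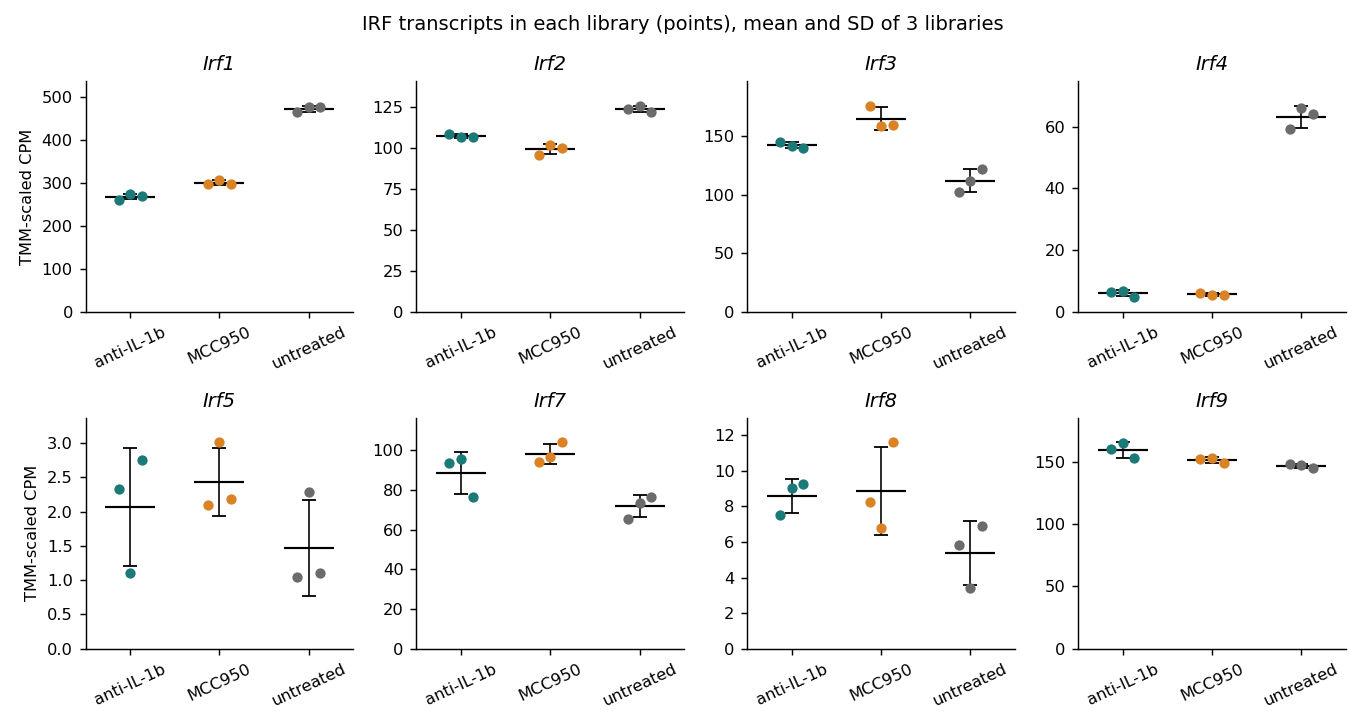
TMM-scaled CPM (linear axes from 0) of the 8 IRF genes in each of 9 libraries (points), with the mean (horizontal line) and SD (bar) of 3 libraries per group, in the order anti-IL-1b, MCC950, untreated. Irf4 stays under 7 CPM in all 6 treated libraries and above 59 CPM in the 3 untreated ones, while Irf9 differs little and Irf5 and Irf8 scatter widely.

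Irf4 (chromosome 13, 30749226 to 30766976, plus strand, mm10) had the largest change of the family. It stood at 6.58, 6.77 and 4.86 CPM in anti-IL-1b libraries, at 6.01, 5.33 and 5.6 CPM in MCC950 libraries, and at 59.2, 66.1 and 64.2 CPM in untreated libraries. All 6 treated libraries lay far below all 3 untreated ones, and the 2 treated groups overlapped. Anti-IL-1b against untreated gave a log2 fold change of -3.38 ± 0.11 (SE, edgeR adjusted p = 2.88e-25), a 10.4-fold lower level. MCC950 against untreated gave -3.48 ± 0.11 (edgeR adjusted p = 8.19e-26), an 11.2-fold lower level. By size these changes ranked 148 and 128 among 13374 genes. Behind the low values stood 292 and 306 counts over the 3 libraries of anti-IL-1b and MCC950, against 3534 in untreated libraries. Its mean transcript length was 4761 to 4764 bases in every library, the lengths of its 2 longest coding transcripts. No other gene overlapped Irf4 in the annotation.

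Irf1, the activator of the family, fell as well. It measured 261, 274 and 271 CPM in anti-IL-1b libraries, 299, 307 and 297 CPM in MCC950 libraries and 465, 478 and 476 CPM in untreated libraries. The 3 groups were separate, with the untreated libraries highest and the anti-IL-1b libraries lowest. Irf1 fell by 43.2% with anti-IL-1b (log2 fold change -0.82 ± 0.03, edgeR adjusted p = 2.96e-23) and by 36.3% with MCC950 (-0.65 ± 0.03, edgeR adjusted p = 4.41e-20). Irf1 (chromosome 11, 53770014 to 53778374, plus strand) shares 907 bases with Gm17334, a gene on the opposite strand. The counts of Irf1 alone were not whole in 8 of 9 libraries, yet the sum of both genes was whole in 9 of 9 within 0.015, so reads were divided between them. Gm17334 took 7.28% to 10.1% of the sum in anti-IL-1b, 7.89% to 9.81% in MCC950 and 4.05% to 4.68% in untreated libraries. With its counts added, an alternative chosen after seeing the data, the log2 fold changes of Irf1 were -0.75 and -0.58, both past the threshold.

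Irf2 (chromosome 8, 46739732 to 46847458, plus strand), the competitor of IRF1, moved less. Its levels were 109, 107 and 107 CPM in anti-IL-1b libraries, 96.1, 102 and 100 CPM in MCC950 libraries, and 124, 126 and 122 CPM in untreated libraries. Each treated library lay below each untreated one. Irf2 fell by 13.3% with anti-IL-1b (log2 fold change -0.21 ± 0.05, edgeR adjusted p = 4.60e-04), and with MCC950 the log2 fold change was -0.32 ± 0.05 (edgeR adjusted p = 3.67e-07). The call with anti-IL-1b depended on the scale: it was lost under library totals (-0.08, edgeR adjusted p = 0.179), and on log2(TPM + 1) the value turned to 0.19 (limma adjusted p = 0.303), where MCC950 gave -0.07 (limma adjusted p = 0.718). TPM, RSEM's transcript abundance relative to one common total, divides counts by the mean transcript length, which for Irf2 ran from 1614 to 2119 bases within anti-IL-1b, 1737 to 2037 within MCC950 and 1786 to 2299 within untreated libraries. The ratio of Irf1 to Irf2 counts was 2.49 ± 0.0935 in anti-IL-1b, 3.03 ± 0.0775 in MCC950 and 3.80 ± 0.0785 in untreated libraries (SD, n = 3 each), with no overlap between the 3 groups.

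The promoters of Irf1 and Irf2 are shown because both genes fell and because they, with Irf8, were the only 3 of the 8 members with any of 4 motifs, searched on both strands, in the 250 bases before a RefSeq start (11 windows, 2 each for Irf1, Irf8 and Irf9). The motifs were the response element core GAAANNGAAA (in 2.98% of 32851 mouse promoter windows of the same length), the STAT site TTCNNNGAA (GAS, 7.02%), the AP-1 site TGANTCA (6.75%) and the NF-kB consensus (7.25%). Capitals mark the match in each sequence, which is read 5′ to 3′ on the plus strand of GRCm38.p6 from RefSeq. In order, the lines are chr11:53769904-53769952, chr11:53769981-53770013, chr8:46739495-46739533 and chr8:46739501-46739549.
Irf1 GAS: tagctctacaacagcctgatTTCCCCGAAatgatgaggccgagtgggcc
Irf1 NF-kB: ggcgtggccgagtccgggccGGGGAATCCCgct
Irf2 response element core: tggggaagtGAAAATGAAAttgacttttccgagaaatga
Irf2 GAS: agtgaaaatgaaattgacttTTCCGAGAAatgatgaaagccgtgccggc
Both genes held a GAS, at -90 to -82 in Irf1 and at -224 to -216 in Irf2, counted from the first base of the transcript. The Irf1 matches lay in window 1 of its 2 windows. The response element core occurred in Irf2 alone among the 8, just upstream of its GAS, and Irf2 also held an NF-kB match at -17 to -8. No AP-1 match lay in any of the 11 windows, and Irf3, Irf4, Irf5, Irf7 and Irf9 had no match at all. These matches describe letters in one window and do not show binding.

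Irf3, the constitutive partner in the induction of interferon, rose. Its levels were 145, 142 and 140 CPM in anti-IL-1b libraries, 176, 159 and 160 CPM in MCC950 libraries and 102, 112 and 122 CPM in untreated libraries. No treated library overlapped the untreated ones, whose own spread was the widest of the 3 groups. The log2 fold change was 0.35 ± 0.05 with anti-IL-1b (edgeR adjusted p = 1.95e-06) and 0.56 ± 0.05 with MCC950 (edgeR adjusted p = 7.66e-11). Irf3 (chromosome 7, 44997648 to 45002848, plus strand) overlaps Bcl2l12 on the opposite strand by 1065 bases, and its counts were whole in 9 of 9 libraries.

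Irf7 (chromosome 7, 141262706 to 141266481, minus strand), itself an interferon-stimulated gene, rose with both agents. It stood at 93.8, 95.7 and 76.3 CPM in anti-IL-1b libraries, at 94.1, 96.6 and 104 CPM in MCC950 libraries and at 65.6, 73.6 and 76.6 CPM in untreated libraries. Anti-IL-1b library 3, at 76.3, lay just below the highest untreated one, so these groups overlapped, whereas all MCC950 libraries were higher. The log2 fold change was 0.30 ± 0.07 with anti-IL-1b (edgeR adjusted p = 0.00234) and 0.45 ± 0.07 with MCC950 (edgeR adjusted p = 2.14e-05). The ratio of Irf3 to Irf7 counts was 1.62 ± 0.189 in anti-IL-1b, 1.68 ± 0.168 in MCC950 and 1.55 ± 0.0391 in untreated libraries (SD, n = 3 each), and the ranges overlapped. The counts of Irf7 were whole in 9 of 9 libraries, and it overlaps Phrf1 on the opposite strand by 45 bases.

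Irf9 (chromosome 14, 55603571 to 55610030, plus strand), the partner of STAT2 in its complex, had the smallest fold changes of the family against untreated libraries. It measured 160, 165 and 153 CPM in anti-IL-1b libraries, 152, 153 and 149 CPM in MCC950 libraries and 148, 147 and 145 CPM in untreated libraries. The treated libraries lay slightly above the untreated ones. The log2 fold change with anti-IL-1b was 0.12 ± 0.04 (edgeR adjusted p = 0.0204). That call was lost without untreated library 2 (0.12, edgeR adjusted p = 0.0539) or 3 (0.11, 0.0775) and without anti-IL-1b library 1 (0.11, 0.0552) or 2 (0.09, 0.137). With MCC950 the value of 0.05 ± 0.04 did not pass (edgeR adjusted p = 0.379, 95% interval -0.03 to 0.13). Under library totals, which add 0.11 to the median gene, it was 0.16 (edgeR adjusted p = 0.00124).

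Irf8 was low and rose. Its levels were 7.51, 9.02 and 9.25 CPM in anti-IL-1b libraries, 8.23, 6.81 and 11.6 CPM in MCC950 libraries and 5.85, 3.41 and 6.91 CPM in untreated libraries. The anti-IL-1b libraries were all above the untreated ones, and 1 MCC950 library was not. The log2 fold change was 0.68 ± 0.22 with anti-IL-1b (edgeR adjusted p = 0.0149) and 0.72 ± 0.22 with MCC950 (edgeR adjusted p = 0.00804). Without untreated library 2, the lowest of all 9, the values were 0.42 (edgeR adjusted p = 0.13) and 0.47 (0.0802). The anti-IL-1b call was also lost without anti-IL-1b library 2 (0.64, edgeR adjusted p = 0.0581) or 3 (0.62, 0.0591), and the MCC950 call without MCC950 library 3 (0.49, 0.11). Irf8 (chromosome 8, 120736358 to 120756694, plus strand) lies within Gm20388, an annotated gene that spans its neighbours on the same strand, but its own counts were whole in 9 of 9 libraries. Of its 2 promoter windows, window 1 held a GAS at -171 to -163 and another at -153 to -145. The part of these sites in the Irf8 result was not tested. The line gives chr8:120736167-120736215, plus strand of GRCm38.p6, with the first match in capitals.
Irf8 GAS: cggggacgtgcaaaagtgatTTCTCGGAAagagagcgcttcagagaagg

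Irf5 (chromosome 6, 29526625 to 29541871, plus strand) was near the limit of measurement and did not pass in either comparison. It had 2.33, 1.10 and 2.76 CPM in anti-IL-1b libraries, 2.10, 3.01 and 2.19 CPM in MCC950 libraries and 1.04, 2.28 and 1.10 CPM in untreated libraries. The groups overlapped, with log2 fold changes of 0.47 ± 0.41 (edgeR adjusted p = 0.40, 95% interval -0.32 to 1.27) and 0.72 ± 0.40 (edgeR adjusted p = 0.164, -0.07 to 1.5). Without untreated library 2 the MCC950 value was 1.19 (edgeR adjusted p = 0.0427). Irf5 shares 1045 bases with the opposite-strand gene Tnpo3, which held 97.3% to 99.1% of their summed counts, and this sum was whole in 9 of 9 libraries where Irf5 alone was whole in 2. Its values are therefore uncertain.

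Summed markers of B cells and of myeloid cells, in which IRF8 and IRF5 are abundant, were higher in treated than in untreated libraries. The 17 B cell markers summed to 501 to 519 CPM in anti-IL-1b, 489 to 514 in MCC950 and 326 to 346 in untreated libraries, most of it Ighm and Cd74, and 16 of 17 rose with either agent. The 15 markers of monocytes, macrophages and dendritic cells summed to 41.1 to 49.6, 42.6 to 54.7 and 29.1 to 36.3 CPM in anti-IL-1b, MCC950 and untreated libraries, with Cst3 and Itgam highest over all 9 libraries. Of the 7 that could be tested, 3 rose and 1 fell with anti-IL-1b and 4 rose with MCC950. Cst3, at 25.8 CPM in anti-IL-1b, 27.0 in MCC950 and 23.7 in untreated libraries, passed with neither agent. Clec10a was at 0 counts in all 3 groups, Fcgr1 in anti-IL-1b and untreated, Clec9a in MCC950 and untreated, and Batf3 in untreated libraries. Neutrophil markers summed to 39.7 to 40.6, 19.0 to 22.1 and 1.10 to 1.34 CPM in the same order, and 9 of 9 tested rose with anti-IL-1b and 8 of 9 with MCC950, though genes this low in untreated libraries, here and in the B cell and myeloid lists, could pass the count filter through treated libraries alone. S100a8, Retnlg, Ltf, Camp, Il1b and Clec4d were at 0 counts in untreated libraries. Plasmacytoid dendritic cell markers, relevant to Irf7 and Irf8, summed to 132 to 144, 126 to 137 and 103 to 110 CPM. Pacsin1 and Bst2 were highest, and Pacsin1 made up most of each sum, at 95.2, 82.0 and 67.4 CPM. Of 6 tested, 3 rose and 0 fell with either agent. Bst2 passed with MCC950 only (log2 fold changes -0.07 and 0.40), and Tcf4 passed with neither (-0.38 and -0.42). Ly6d, which rose with both, had 7 counts in untreated libraries and could pass the count filter through treated libraries alone. Siglech was at 0 in MCC950 libraries, Klk1 in all groups and Cox6a2 in anti-IL-1b and untreated libraries. The part of these cells in the Irf5, Irf7 and Irf8 results was not tested.

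The remaining lists went in different directions. Cytotoxic cell markers summed to 96.9 to 106, 100 to 105 and 67.3 to 75.0 CPM in anti-IL-1b, MCC950 and untreated libraries, led by Prf1 and Cd8b1. Klrb1c and Ncr1 were at 0 in untreated libraries. Of 8 tested, 4 rose and 1 fell with anti-IL-1b, and 3 rose and 0 fell with MCC950. Prf1, at 36.9, 42.5 and 45.9 CPM in the same order, fell with anti-IL-1b and did not pass with MCC950. Cd8b1, at 26.3, 23.1 and 12.5 CPM, and Cd8a, at 19.4, 19.7 and 0.97 CPM, rose with both. Red cell markers summed to 4.38 to 5.0, 6.13 to 10.3 and 0.122 to 0.445 CPM, with Hbb-bs and Hba-a2 highest in treated libraries, and Hbb-bs, Hbb-bt, Hba-a1 and Slc4a1 at 0 in untreated libraries. Plasma cell markers, with Xbp1 and Prdm1 highest and Tnfrsf17 at 0, summed to 40.4 to 44.8, 43.0 to 49.1 and 67.7 to 72.6 CPM in the same order. Most of this sum was Xbp1, at 32.5, 36.9 and 60.0 CPM, which fell with both agents, while Jchain, at 1.97, 1.66 and 0.127 CPM, rose with both and Prdm1 did not pass. Jchain had 7 counts in untreated libraries and could pass the count filter through treated libraries alone. Markers of regulatory and activated T cells summed to 75.4 to 80.9, 72.4 to 85.4 and 114 to 119 CPM in the same order, with Tnfrsf18 and Cd44 highest over all 9 libraries. Most of that difference was Ctla4, at 3.08 CPM in anti-IL-1b, 3.11 in MCC950 and 43.9 in untreated libraries, whereas 3 of the 10 markers rose and 1 fell with anti-IL-1b (median log2 fold change 0.26), and 3 rose and 2 fell with MCC950 (median 0.54). Foxp3, among those that rose with MCC950, had 29.9 counts in untreated libraries and could likewise pass the count filter through treated libraries alone. IRF4 is abundant in plasma cells and activated T cells, and the part of such cells in the Irf4 result was not tested.

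**Figure D2:**
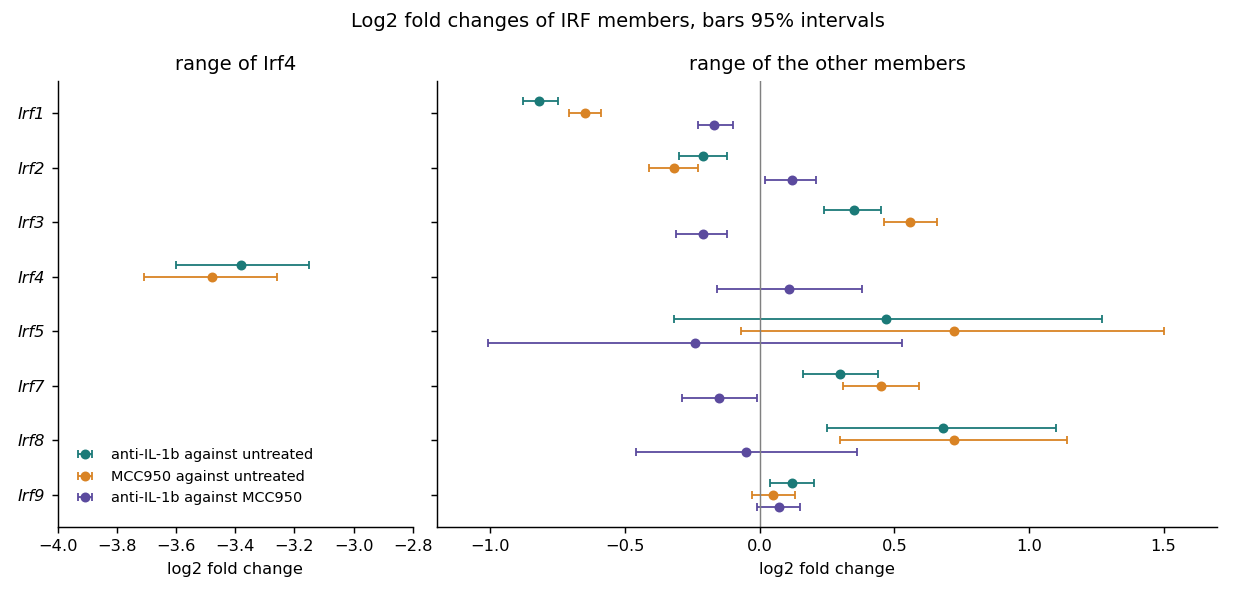
Log2 fold changes of the 8 IRF genes (rows) from edgeR, with 95% intervals as bars, for each agent against untreated libraries and for the agents against each other (anti-IL-1b over MCC950). The left panel covers the range of Irf4 against untreated (-3.38 and -3.48) and the right panel all other values, on 2 separate linear axes. Intervals are widest for Irf5 and Irf8, the members with the fewest counts beside Irf4.

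Set against each other on the TPM scale, which is per length, the members changed places while their total overlapped between groups. The 8 genes summed to 814 ± 19.8 TPM in anti-IL-1b, 826 ± 16.1 in MCC950 and 817 ± 34.4 in untreated libraries (SD, n = 3 each). Irf3 led in treated libraries with 269 ± 9.06 TPM (anti-IL-1b) and 292 ± 11.6 TPM (MCC950), against 162 ± 17.5 TPM in untreated libraries. Irf1 was second in both with 230 ± 8.56 and 244 ± 5.17 TPM, and first in untreated libraries with 381 ± 10.4 TPM. Irf9 came next in each group, at 119, 109 and 99.6 TPM in anti-IL-1b, MCC950 and untreated libraries. Irf2 and Irf7 followed, with 105 and 81.1 TPM in anti-IL-1b, 86.2 and 87.0 in MCC950, and 91.2 and 59.2 in untreated libraries. The neighbours Irf9 and Irf2 overlapped in anti-IL-1b and untreated libraries, and Irf2 and Irf7 overlapped in anti-IL-1b and MCC950 libraries. Irf4 was sixth in untreated libraries with 18.7 ± 1.03 TPM, above Irf8 at 3.16 ± 0.62 and Irf5 at 1.54 ± 0.74. In anti-IL-1b libraries Irf8 led this low group with 5.70 ± 0.62 TPM, ahead of Irf4 at 2.01 ± 0.345 and Irf5 at 1.68 ± 0.632, and in MCC950 libraries with 5.20 ± 0.983 TPM, ahead of Irf5 at 1.84 ± 0.319 and Irf4 at 1.78 ± 0.101. Irf4 and Irf5 overlapped in both treated groups.

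As a share of the summed IRF TPM, Irf1 made up 28.3% ± 1.7 in anti-IL-1b, 29.5% ± 0.982 in MCC950 and 46.7% ± 2.12 in untreated libraries (SD, n = 3 each). Irf3 made up 33.0% ± 0.495, 35.3% ± 0.715 and 19.8% ± 1.35 in the same order, and Irf4 0.246% ± 0.0397, 0.216% ± 0.00796 and 2.28% ± 0.109. For each of these 3 genes the treated and untreated libraries did not overlap. With 1 mean length per gene in place of the length of each library, an alternative chosen after seeing the data, Irf1 made up 29.5%, 30.5% and 44.6% and Irf3 31.9%, 34.2% and 21.6%. The ratio of Irf4 to Irf8 counts was 0.717 ± 0.178 in anti-IL-1b, 0.666 ± 0.16 in MCC950 and 12.9 ± 5.59 in untreated libraries.

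**Figure D3:**
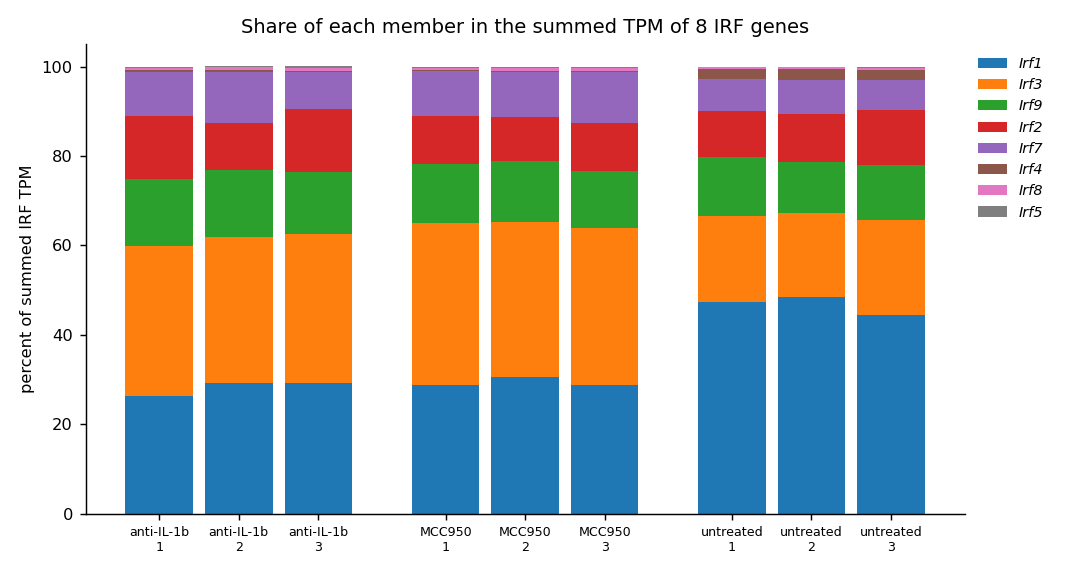
Percent of the summed TPM of the 8 IRF genes held by each member, stacked per library, with anti-IL-1b, MCC950 and untreated libraries from left to right. Irf1 holds 44.4% to 48.5% in the untreated libraries and 26.4% to 30.6% in the 6 treated ones, and Irf3 fills most of the difference.

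The mean transcript length, which RSEM weights by the share of each annotated transcript, differed between groups for Irf1 and Irf3. Irf1 averaged 1954 to 1990 bases in anti-IL-1b, 1975 to 2015 in MCC950 and 1854 to 1905 in untreated libraries, so it was longer in all 6 treated libraries. Among 10392 tested genes whose length varied by 10 bases or more, 3.93% were longer in all 6. Irf3 averaged 999 to 1029 bases in anti-IL-1b, 1025 to 1047 in MCC950 and 1122 to 1206 in untreated libraries, and 3.55% of these genes were shorter in all 6 treated libraries. Irf1 has 10 annotated transcripts of 515 to 2137 bases and Irf3 has 13 of 369 to 2031 bases, including several with retained introns. The files give no transcript-level values here, so which transcripts moved was not analysed.

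**Figure D4:**
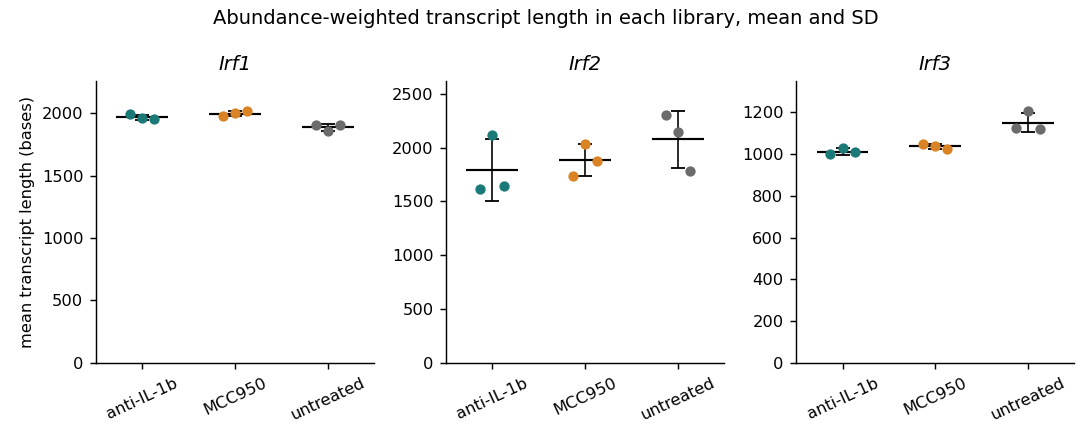
Abundance-weighted mean transcript length in bases (linear axes from 0) for Irf1, Irf2 and Irf3 in each library (points), with mean and SD of 3 libraries per group, ordered anti-IL-1b, MCC950, untreated. Irf3 is shorter and Irf1 slightly longer in all 6 treated libraries, while Irf2 varies within groups.

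Set directly against MCC950, anti-IL-1b gave lower Irf1 and Irf3. The 2 members that passed, both lower with anti-IL-1b, compare with 13.2% of all genes (6.13% higher, 7.11% lower), and 3 of 8 members had groups that did not overlap, against 29.4% of all genes. The median log2 fold change was -0.10 for the members and 0.0 for all genes. Irf1 averaged 269 ± 7.0 CPM in anti-IL-1b and 301 ± 4.94 CPM in MCC950 libraries (log2 fold change -0.17 ± 0.03, edgeR adjusted p = 2.83e-04). Irf3 averaged 142 ± 2.48 CPM in anti-IL-1b and 165 ± 9.21 CPM in MCC950 libraries (-0.21 ± 0.05, edgeR adjusted p = 0.00319). Neither passed on log2(TPM + 1), at -0.08 and -0.12 (limma adjusted p = 0.28 and 0.387). Irf4 did not separate the agents, with a log2 fold change of 0.11 ± 0.14 (edgeR adjusted p = 0.697, 95% interval -0.16 to 0.38). Irf2 at 0.12 (interval 0.02 to 0.21), Irf7 at -0.15 (-0.29 to -0.01), Irf9 at 0.07 (-0.01 to 0.15), Irf8 at -0.05 (-0.46 to 0.36) and Irf5 at -0.24 (-1.01 to 0.53) did not pass either.

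Of 20 genes listed for antigen receptor signalling and Irf4 induction, 17 fell with anti-IL-1b and 17 with MCC950, and none rose. Of all tested genes 18.5% and 19.1% fell. Egr3 (log2 fold changes 0.01 and -0.03), Il2ra (0.92 and 0.53) and Prdm1 (-0.23 and -0.33) did not pass in either comparison. The median log2 fold change of the list was -1.47 and -1.49. Tnfaip3, a brake on NF-kB, averaged 93.9 ± 3.82 CPM in anti-IL-1b, 70.8 ± 1.67 in MCC950 and 1390 ± 0.679 in untreated libraries (SD, n = 3 each), with log2 fold changes of -3.89 and -4.29. Nr4a1, an early reporter of T cell receptor signals, averaged 72.1 ± 2.35, 50.9 ± 3.70 and 963 ± 14.8 CPM in the same order (-3.74 and -4.24). Fosb, an AP-1 gene, averaged 46.0 ± 0.278, 12.0 ± 1.42 and 687 ± 16.2 CPM (-3.90 and -5.84), and all 3 genes passed in both comparisons. In the direct comparison 7 of the 20 were higher with anti-IL-1b than with MCC950 and none lower, beside 6.13% and 7.11% of all tested genes. Fosb was higher by 1.94 ± 0.06 (edgeR adjusted p = 3.29e-25). This list was drawn up with the fall of these genes already known, so its count is a description.

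Of 19 tested partners of IRF proteins, 4 rose and 12 fell with anti-IL-1b (median -0.18), and 5 rose and 12 fell with MCC950 (median -0.22). Over all tested genes 15.4% rose and 18.5% fell with anti-IL-1b, and 17.7% rose and 19.1% fell with MCC950, shares that serve for the lists that follow as well. The partner list and those that follow were also chosen with earlier results of these data known, so their counts are descriptions. Junb and Batf are counted both here and in the antigen receptor list. Jun, an AP-1 partner of IRF4, averaged 206 ± 8.29 CPM in anti-IL-1b, 133 ± 4.66 in MCC950 and 1620 ± 9.78 in untreated libraries, with log2 fold changes of -2.98 and -3.60. Jund averaged 304 ± 25.8, 300.0 ± 1.32 and 1130 ± 13.3 CPM (-1.89 and -1.91). Irf2bpl, of the family of IRF2-binding proteins, changed by -0.76 and -0.57, and Rel, an NF-kB subunit, by -0.71 and -0.85, each past the threshold in both comparisons. The following partners were picked for their known roles after their values were seen. Batf, which binds DNA with IRF4, fell by 0.70 and 0.55 on the log2 scale with anti-IL-1b and MCC950. Stat2, a partner of IRF9, rose by 0.39 and 0.27. Spi1 and Spib, partners of IRF4 and IRF8 in B cells and myeloid cells, had 57 and 65 counts in anti-IL-1b, 67 and 151 in MCC950 and 3 and 19 in untreated libraries. Both are among the partners counted as risen, but could pass the count filter through treated libraries alone.

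**Figure D5:**
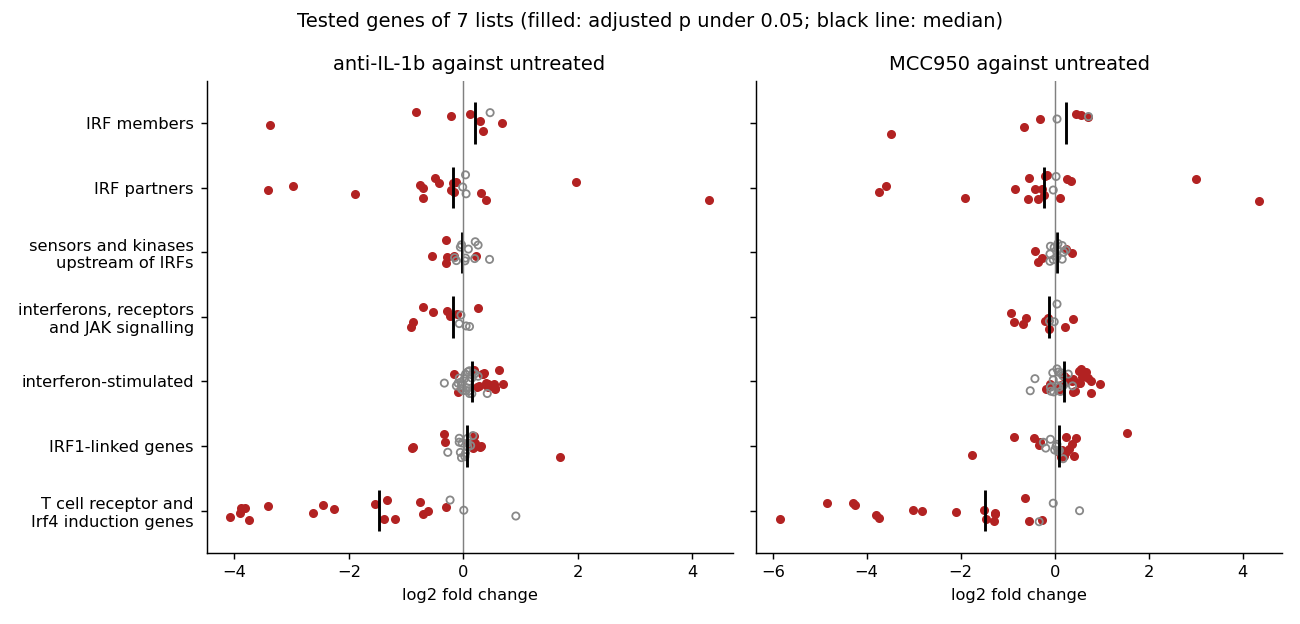
Log2 fold changes against untreated libraries of the tested genes of 7 lists, with anti-IL-1b on the left and MCC950 on the right, with filled points for an edgeR adjusted p under 0.05, open points for the rest and a black line at the median of the list. The antigen receptor list has medians of -1.47 and -1.49, and the interferon-stimulated list 0.15 and 0.19.

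Upstream of the IRFs, sensor and kinase genes passed about as often as all tested genes (34% with anti-IL-1b, 36.8% with MCC950). Of 17 tested, 1 rose and 5 fell with anti-IL-1b (median -0.03) and 2 rose and 3 fell with MCC950 (median 0.05). Ikbke, a kinase of IRF3 and IRF7, averaged 540 ± 11.4 CPM in anti-IL-1b, 551 ± 3.67 in MCC950 and 462 ± 7.63 in untreated libraries, and rose by 0.23 and 0.25 on the log2 scale. Peli1, an E3 ubiquitin ligase of Toll-like receptor signalling, changed by -0.29 and -0.36, and Traf6, an adaptor ligase of the same pathway and of the IL-1 receptor, by -0.30 and -0.26, each past the threshold. No reads were assigned to Ifnb1, Ifna1, Ifna2, Ifna4 or Ifne in any library, which allows up to 0.0646, 0.0565 and 0.0509 CPM of the pooled totals of the anti-IL-1b, MCC950 and untreated groups at a limit of 3 counts, for counting error only. Ifng had 14, 2 and 14 counts and Ifnk 10, 4 and 2 in the same order.

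In the list of interferon receptors and their signalling genes, those that passed were mostly lower, but not every receptor chain fell. Of 12 tested, 1 rose and 7 fell with anti-IL-1b (median -0.18), and 2 rose and 7 fell with MCC950 (median -0.13). Ifngr1, the ligand-binding chain of the interferon gamma receptor, averaged 95.6 ± 3.07 CPM in anti-IL-1b, 94.6 ± 1.53 in MCC950 and 180 ± 5.98 in untreated libraries (log2 fold changes -0.91 and -0.93). Ifngr2, its signalling chain, averaged 46.7 ± 3.17, 47.6 ± 1.22 and 76.2 ± 4.11 CPM (-0.71 and -0.68). The type I receptor chain Ifnar1 changed by -0.04 with anti-IL-1b (edgeR adjusted p = 0.495) and by -0.11 with MCC950 (edgeR adjusted p = 0.0271). Ifnar2 (-0.07 and 0.05) and Il10rb (0.05 and -0.01) did not pass in either comparison. The feedback inhibitors Socs1 (-0.87 and -0.87) and Socs3 (-0.53 and -0.62) fell as well.

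Interferon-stimulated genes that passed were mostly higher. Of 40 tested, 15 rose and 2 fell with anti-IL-1b (median 0.15), and 21 rose and 2 fell with MCC950 (median 0.19), beside 15.4% and 18.5% of all genes with anti-IL-1b and 17.7% and 19.1% with MCC950. Lgals3bp averaged 90.6 ± 5.67 CPM in anti-IL-1b, 91.1 ± 1.95 in MCC950 and 62.4 ± 0.815 in untreated libraries (log2 fold changes 0.54 and 0.55). Ifi27l2a changed by 0.56 and 0.56, Samhd1, a dNTPase that restricts retroviruses, by 0.24 and 0.12, and Ifit1, which binds foreign RNA, by 0.69 and 0.97, each past the threshold. In the direct comparison 1 of the 40 was higher and 4 were lower with anti-IL-1b, beside 6.13% and 7.11% of all tested genes.

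Genes linked to IRF1 in antigen presentation and interferon gamma responses split. Of 25 tested, 8 rose and 4 fell with anti-IL-1b (median 0.07), and 11 rose and 5 fell with MCC950 (median 0.10), while Irf1 itself fell. B2m, the invariant chain of MHC class I, averaged 1050 ± 25.5 CPM in anti-IL-1b, 1050 ± 14.2 in MCC950 and 1320 ± 23.2 in untreated libraries (log2 fold changes -0.34 and -0.34). Nlrc5, the transactivator of MHC class I genes, went the other way with 497 ± 11.5, 450.0 ± 7.45 and 403 ± 8.58 CPM (0.30 and 0.16). The immunoproteasome genes Psmb8 (0.18 and 0.42) and Psmb9 (0.31 and 0.46) rose, less with anti-IL-1b than with MCC950 (direct log2 fold changes -0.24 and -0.15, edgeR adjusted p = 1.06e-05 and 0.0133).

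The genes whose course over the 9 libraries was most like that of a member were found by root mean square difference. It was taken on log2 CPM less the untreated mean, among 9023 genes whose log2 CPM averaged 2 or more. Predicted genes, Rik clones, pseudogenes and receptor segments were left out of these candidates. For Irf4 the closest were Junb (0.188), Cxcr4 (0.192) and Dnajb4 (0.202), where the median over all candidates was 2.79. For Irf1 they included Ahsa2 (0.051) and Saraf (0.067), with a median of 0.61. Near Irf2 were Wasf2 (0.019) and Ipcef1 (0.032). Irf9 was closest to Pfkp, Ifi206 and Dop1b (0.029 to 0.031), Irf3 to Adcy6, Cuta and Pglyrp2 (0.057 to 0.074) and Irf7 to Tmem186, Recql5 and Supt3 (0.061 to 0.082). Irf8 was closest to Jagn1, Snn and Trmt12 (0.237 to 0.244) and Irf5 to Zfp991, Ldhd and Cxcr5 (0.302 to 0.321). These distances describe 9 libraries in 3 groups and carry no test.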

How the data were processed

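The members and gene lists were chosen with earlier results of these data known. The authors aligned and quantified reads with STAR and RSEM on mm10, per the submitters' processing notes, with versions not given in the sources used here. The deposited expected counts are RSEM's unnormalized estimates of reads per gene, and the deposited TPM and FPKM values relate them to effective length, per the file headers. FPKM was not used. Per the labels' protocols the library kit keeps strand, but counts of Irf1 and Irf5 shared reads with opposite-strand genes. Of 55487 gene IDs, 99.4% had a GENCODE M21 symbol. Expected counts were rounded and tested with edgeR 4.0.16 (R 4.3.3; TMM, filterByExpr, robust quasi-likelihood, 3 group means over 9 libraries), tested on simulated data; TMM factors were 0.945 to 1.035 and the common biological coefficient of variation was 0.0707. Log2 fold changes are edgeR estimates, and their SE is the size divided by the square root of F. DESeq2 1.42.0, limma 3.58.1, other scalings, filters and left-out libraries served as alternatives. Named genes were all members (some genes the rule selects are not reported here), the 3 smallest p-values per pathway list in each comparison with untreated libraries, and the 2 highest markers per list. Libraries of one group differed beyond sampling noise (chi-square per degree of freedom 3.75 to 5.27), so none was taken as a copy of another. Separate preparations from one mouse can also differ beyond sampling noise, so this does not tell technical from biological repeats.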

Additional observations from a re-analysis of the deposited data

Results flagged for a closer look

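Irf1 and Irf3 differed between the agents in a direct test. Irf1 was lower with anti-IL-1b than with MCC950 by a log2 fold change of -0.17, and Irf3 by -0.21, with edgeR adjusted p-values of 2.83e-04 and 0.00319, and the anti-IL-1b libraries lay below the MCC950 libraries for both genes in 3 of 3. Of all tested genes 13.2% passed in this comparison and 29.4% had groups that did not overlap. On log2(TPM + 1) neither Irf1 (-0.08, limma adjusted p = 0.28) nor Irf3 (-0.12, limma adjusted p = 0.387) passed.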

How the results depend on the processing

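Of the members' log2 fold changes, Irf1, Irf3, Irf4 and Irf7 against untreated libraries kept their direction and call in every alternative run. On TPM, limma calls fell to 3263 genes for MCC950 against untreated on log2(TPM + 1), where edgeR on counts called 4921, and to 572 and 565 for anti-IL-1b against MCC950 with pseudocounts of 1 and 0.1, where edgeR called 1771; there 0 members were called, against 2 by edgeR. The same fits turned Irf2 with anti-IL-1b to 0.19 and 0.20 and Irf8 between agents to 0.12 and 0.14. Irf5 with Tnpo3 added gave -0.05 and -0.10 against untreated and 0.05 between agents, but that sum is almost all Tnpo3 and gives no direction for Irf5; with each library left out Irf5 ran from -0.50 to 0.06 between agents (0.06 without anti-IL-1b library 2) and Irf8 from -0.21 to 0.19 (0.04 without anti-IL-1b library 1, 0.19 without MCC950 library 3). The cause was not tested. Leaving out each library gave 3954 to 4498 calls for anti-IL-1b against untreated, 4201 to 5021 for MCC950 against untreated and 1246 to 1763 between agents, with 5 to 7, 5 to 6 and 2 members called. Higher and lower genes numbered 2369 and 2552 with MCC950, 4009 and 1587 under library totals and 2859 and 2211 under upper-quartile scaling, which gave 2687 and 1941 with anti-IL-1b. Deviations of libraries with the same number correlated at r of -0.01 to 0.063, and those with different numbers at -0.057 to 0.025. Most same-number values were positive and most others negative, though all were small. Whether libraries with the same number were handled together was not tested, and the numbers were not taken as pairs. As an alternative, a replicate block gave 4483, 4855 and 1704 calls, with 7, 6 and 2 members. Low counts limit Irf5 and Irf8.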
